A study of Mus musculus with 6 samples.

Results

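The genes described here are 10 genes of the kynurenine pathway and of the aryl hydrocarbon receptor (AhR), chosen by gene symbol: *Ido1*, *Ido2*, *Kmo*, *Kynu*, *Haao*, *Aadat*, *Ahr*, *Ahrr*, *Tiparp* and *Nqo1*. All 10 were present among the 18477 genes of the deposited table. RNA was sequenced from colon tissue of 6 male C57BL/6 mice, 6 to 8 weeks old when purchased, in a DSS group (n = 3) and a DSS+BV group (n = 3). All 6 mice drank 2% dextran sulfate sodium (DSS), which injures the colon epithelium and causes colitis, from day 8 to day 14. The DSS mice received PBS by gavage once a day for 14 days, and the DSS+BV mice received the gut bacterium *Bacteroides vulgatus* (*B. vulgatus*) in PBS on the same days. Every library thus comes from a mouse with chemical colitis, and colon from mice without DSS was not analysed here. How the 3 sequenced mice of each group were selected is not stated. The segment of colon that was sequenced is not given in the sources used here.

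Most dietary tryptophan that is not built into protein is broken down along the kynurenine pathway. Indoleamine dioxygenases open the indole ring, and later enzymes turn kynurenine towards NAD on one branch or towards kynurenic acid on the other. Kynurenine, kynurenic acid and several indoles made by gut bacteria are ligands of AhR, a transcription factor that is held in the cytosol by chaperones and enters the nucleus once a ligand binds. In the gut, AhR is known for roles in innate lymphoid cells, intraepithelial lymphocytes and the epithelium, and *Ido1* is known to be induced by interferon gamma during colitis.

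The libraries held between 15293276 and 17254343 expected counts. Levels are given as CPM, in which each count is divided by the size of its library after TMM scaling. The values of a group are listed in the order of mice 1, 2 and 3, with "DSS alone" for the DSS group and "*B. vulgatus*" for the DSS+BV group, and log2 fold changes are those of DSS+BV against DSS. Of 14579 genes with enough counts to test, edgeR's quasi-likelihood test called 13 (0.0892%), all lower in the DSS+BV group, at an adjusted p under 0.05 with a log2 fold change beyond 1 in size. DESeq2 called 280 lower and 45 higher, and edgeR without DSS+BV 1 called 3 lower and 4 higher. Epithelial markers such as *Epcam* and *Krt8* were present in every library. The 10 epithelial markers summed to between 13031 and 15539 CPM in the DSS mice and between 19989 and 31431 CPM in the DSS+BV mice. Of these sums, *Car1* alone, named after its values were seen, held 10453 CPM in DSS+BV 2 and 8702 CPM in DSS+BV 3. It was between 825 and 1041 CPM in the DSS mice and at 924 CPM in DSS+BV 1. Taken singly, 5 of the 10 markers were higher in each DSS+BV mouse than in each DSS mouse. The 8 neutrophil markers summed to between 196 and 252 CPM in the DSS mice and between 15.6 and 32.2 CPM in the DSS+BV mice, and 6 of the 8 were among the 13 called genes. In whole tissue, fewer cells of a type and less RNA per cell cannot be told apart.

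No member of the pathway was called between the groups. Of the 10 members, 8 had enough counts to be tested, and 0 of the 8 passed the threshold of the edgeR test, beside 0.0892% of all tested genes. At an unadjusted p under 0.05 there was 1 member, *Nqo1*, which was higher, beside 12.5% of all tested genes (3.4% higher and 9.12% lower). DESeq2 called 0 members, beside 2.01% of the genes it tested, and limma-voom called 0, beside 0.0686%. What the members showed instead was a wide spread between mice of the same group. For *Ido1*, *Kmo*, *Kynu*, *Haao* and *Nqo1* the highest mouse was between 3.30 (*Kmo*) and 9.74 (*Ido1*) times the lowest within the DSS group, and between 2.70 (*Nqo1*) and 7.85 (*Haao*) times within the DSS+BV group. For *Ahr* the ratio was 1.12 and 1.39 in the respective groups, and for *Tiparp* 1.46 and 1.24.

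**Figure D1:**
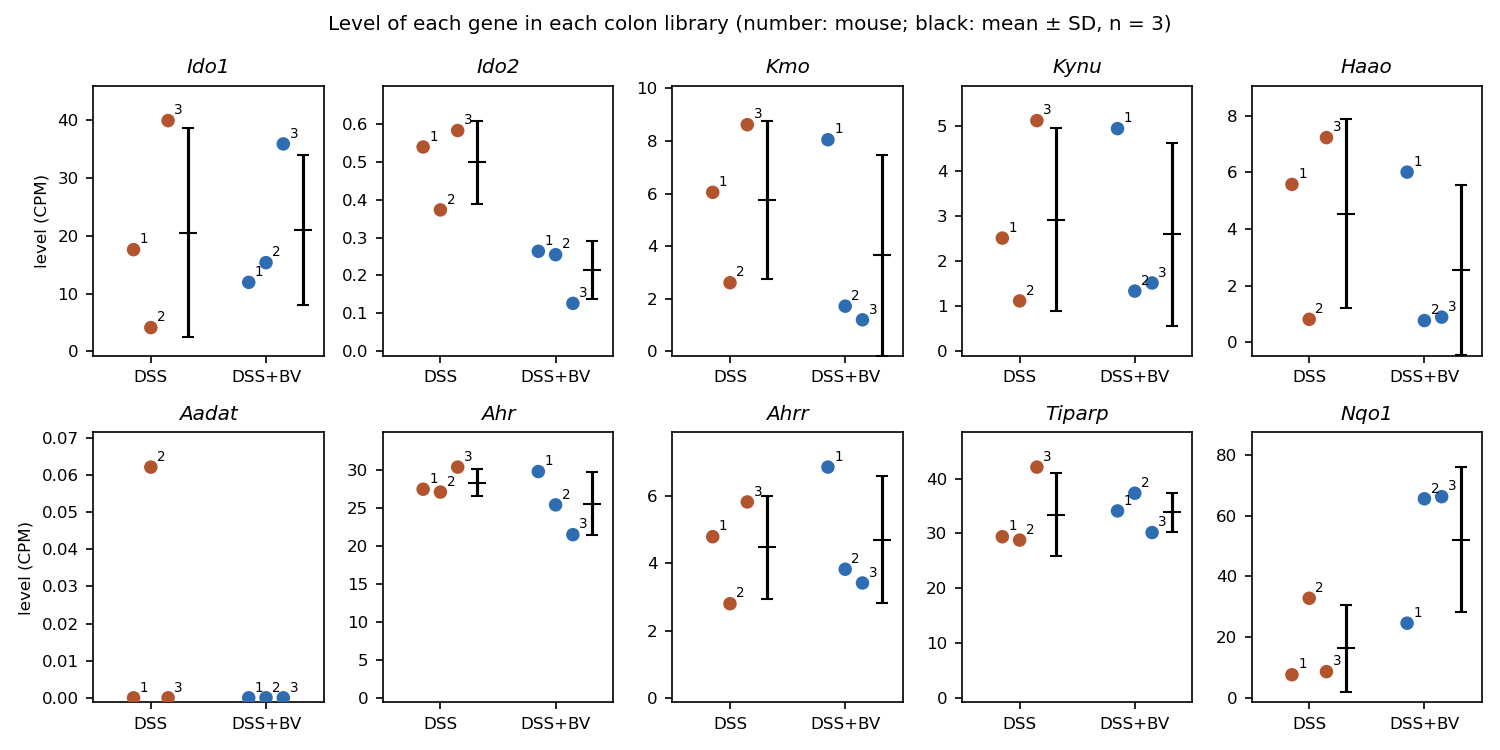
Level in CPM (vertical axis, one scale per gene) of the 10 genes in each colon library, with the DSS mice in brown, the DSS+BV mice in blue, the mouse number beside each point and the group mean ± SD (n = 3) in black, except for *Aadat*, which was listed at 0 in 5 of 6 libraries. The groups overlap for every gene but *Ido2*, and *Kmo*, *Kynu* and *Haao* are high in DSS 1, DSS 3 and DSS+BV 1.

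*Ido1* (Entrez gene 15930, chr8:24584133-24596952 of GRCm38.p6, minus strand) encodes the inducible enzyme that opens the ring of tryptophan. Its level was 17.6, 4.10 and 39.9 CPM with DSS alone and 11.9, 15.4 and 35.9 CPM with *B. vulgatus*. The highest and the lowest of the 6 values both came from the DSS group, in DSS 3 and DSS 2. The group means were 20.6 ± 18.1 CPM and 21.1 ± 13.0 CPM (SD, n = 3 each). The groups differed by a log2 fold change of 0.04 (standard error 0.78, 95% interval -1.83 to 1.90, edgeR adjusted p = 0.989). A change of 3-fold in either direction therefore lies inside the interval, and the test could not tell such a change from none at this spread. Its sign depended on single mice, with a log2 fold change of 0.95 without DSS 3 and of -0.59 without DSS+BV 3, and with upper-quartile factors it was -0.030.

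*Ido2* (Entrez gene 209176, chr8:24531892-24576414, minus strand) lies beside *Ido1* on the same chromosome and encodes a related enzyme with weaker activity on tryptophan. It had too few reads to be tested, with 9, 6 and 10 counts with DSS alone and 4, 4 and 2 counts with *B. vulgatus*. These counts correspond to between 0.373 and 0.582 CPM in the DSS mice and between 0.126 and 0.264 CPM in the DSS+BV mice. Each DSS+BV mouse was below each DSS mouse, a separation that held in this direction for 11.3% of all tested genes. The ratio of the summed counts, 10 against 25 and scaled to library totals, was 0.428, with an exact 95% interval of 0.184 to 0.923 that covers counting error only and not the spread between mice. When every gene with a count was tested, the log2 fold change of *Ido2* was -1.16 (edgeR adjusted p = 0.489, standard error 0.56).

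The next enzymes of the pathway act on kynurenine itself. *Kmo* (Entrez gene 98256, chr1:175632193-175660853, plus strand) encodes the monooxygenase that commits kynurenine to the NAD branch. It was at 6.05, 2.61 and 8.62 CPM with DSS alone and 8.05, 1.72 and 1.2 CPM with *B. vulgatus*. DSS+BV 1 lay between DSS 1 and DSS 3, and the other DSS+BV mice lay below all of them. For *Kmo* the edgeR fit gave a log2 fold change of -0.66 (standard error 0.79, 95% interval -2.54 to 1.23, edgeR adjusted p = 0.756). With 1 mouse left out it ran from -1.96 without DSS+BV 1 (edgeR adjusted p = 0.241) to -0.24 without DSS+BV 3, with -0.25 without DSS 3 and -0.31 without DSS+BV 2.

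*Kynu* (Entrez gene 70789, chr2:43555258-43683048, plus strand) encodes kynureninase, which cleaves the side chain of kynurenine and of its hydroxylated form. Its level was 2.51, 1.12 and 5.12 CPM with DSS alone and 4.95, 1.34 and 1.52 CPM with *B. vulgatus*. DSS 3 and DSS+BV 1 were the highest and DSS 2 the lowest, so that each group held both a high and a low mouse. The fitted log2 fold change of *Kynu* was -0.17 (standard error 0.72, 95% interval -1.88 to 1.54, edgeR adjusted p = 0.938), and its sign changed when single mice were left out, from -1.02 without DSS+BV 1 to 0.51 without DSS 3.

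*Haao* (Entrez gene 107766, chr17:83831348-83848981, minus strand) encodes the dioxygenase that makes the direct precursor of quinolinic acid. It was at 5.57, 0.808 and 7.22 CPM with DSS alone and 6.0, 0.764 and 0.885 CPM with *B. vulgatus*. The values fell into 2 ranges with none between, and both ranges held mice of both groups. The within-group SD of its log2 CPM was 1.59, larger than that of 98.6% of all tested genes, whose median was 0.291. In the edgeR fit the log2 fold change of *Haao* was -0.83 (standard error 1.02, 95% interval -3.26 to 1.60, edgeR adjusted p = 0.761). With 1 mouse left out it ran from -2.44 without DSS+BV 1 (edgeR adjusted p = 0.293) to -0.33 without DSS 3, with -0.39 without DSS+BV 2 and -0.42 without DSS+BV 3.

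*Aadat* (Entrez gene 23923, chr8:60505843-60545677, plus strand) encodes an aminotransferase that turns kynurenine into kynurenic acid. A single read was assigned to it, in DSS 2, and the other 5 libraries were at 0. A count of 0 allows up to 3 counts, which is between 0.175 and 0.198 CPM in these libraries, so *Aadat* was not detectable at this depth in most of the mice and no fold change is given.

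*Ahr* (Entrez gene 11622, chr12:35497979-35534989, minus strand) encodes the receptor. Its level was 27.5, 27.1 and 30.4 CPM with DSS alone and 29.8, 25.4 and 21.5 CPM with *B. vulgatus*. The groups overlapped, and the highest library was 1.41 times the lowest. For *Ahr* the log2 fold change was -0.15 (standard error 0.17, 95% interval -0.55 to 0.25, edgeR adjusted p = 0.742). The interval leaves out a halving and a doubling of *Ahr* RNA. Its within-group SD of 0.18 on the log2 scale was larger than that of 24.5% of tested genes. The annotation places 127 exonic bases of *Gm48236* on the opposite strand within exons of *Ahr*, and whether the counting used strand is not given in the sources used here.

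*Ahrr* and *Tiparp* encode proteins that act against AhR, and both are known targets of the receptor. *Ahrr* (Entrez gene 11624, chr13:74211118-74292331, minus strand) encodes the AhR repressor, which competes with AhR for its partner ARNT. *Tiparp* (Entrez gene 99929, chr3:65528447-65555518, plus strand) encodes an ADP-ribosyltransferase that modifies AhR and lowers its activity. AhR and ARNT bind a core of the letters GCGTG. This core was searched on both strands in the 250 bases before the start of transcription, from RefSeq (GRCm38.p6), for the 6 members with an entry, *Kmo*, *Haao*, *Aadat*, *Ahrr*, *Tiparp* and *Nqo1*. It was present in 28.2% of all 32851 such windows. *Ahrr* held 3 copies, on the strand of the gene, with their first bases at 107, 82 and 27 bases before the start, and 2.77% of all windows held 3 or more. The start of the RefSeq entry for *Haao* lies 2191 bases inside the gene span given above, and that for *Aadat* lies 281 bases inside. *Haao* and *Tiparp* held 1 copy each, and *Kmo*, *Aadat* and *Nqo1* held none within this window. The window of *Ahrr* and 30 bases around the copies of *Haao* and *Tiparp* are shown, because these are the members with the core. They are written 5′ to 3′ on the strand of the gene, and capitals mark the core, which reads CACGC where it lies on the opposite strand.
Ahrr, chr13:74292332-74292581, minus strand: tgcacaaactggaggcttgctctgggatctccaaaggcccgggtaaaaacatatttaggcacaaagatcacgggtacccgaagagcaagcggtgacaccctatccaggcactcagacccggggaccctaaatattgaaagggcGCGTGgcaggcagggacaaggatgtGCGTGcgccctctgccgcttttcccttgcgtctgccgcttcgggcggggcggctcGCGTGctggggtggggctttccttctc
Haao, chr17:83846910-83846939, minus strand: atccctgctccgGCGTGtgtgcaggggcag
Tiparp, chr3:65528265-65528294, plus strand: ctccgtccggagCACGCgcacgggaggcgg

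*Ahrr*, with 3 copies of the core, was at 4.79, 2.80 and 5.82 CPM with DSS alone and 6.86, 3.82 and 3.41 CPM with *B. vulgatus*. The lowest mouse belonged to the DSS group and the highest to the DSS+BV group. Between the groups *Ahrr* differed by a log2 fold change of 0.07 (standard error 0.40, 95% interval -0.89 to 1.03, edgeR adjusted p = 0.956), and it ran from -0.29 without DSS+BV 1 to 0.31 without DSS 3. *Tiparp* was at 29.4, 28.8 and 42.1 CPM with DSS alone and 34.1, 37.3 and 30.2 CPM with *B. vulgatus*. All 3 DSS+BV mice lay between the lowest and the highest DSS mouse. The log2 fold change of *Tiparp* was 0.02 (standard error 0.20, 95% interval -0.45 to 0.49, edgeR adjusted p = 0.977), and with upper-quartile factors it was -0.037. On the opposite strand, 223 exonic bases of *4931440P22Rik* lie within exons of *Tiparp*.

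*Nqo1* (Entrez gene 18104, chr8:107388225-107403205, minus strand) encodes a quinone reductase that protects against oxidants and is a known target of both AhR and the oxidant sensor NRF2. It had the largest difference among the tested members. Its level was 7.60, 32.8 and 8.62 CPM with DSS alone and 24.6, 65.6 and 66.3 CPM with *B. vulgatus*. The group means were 16.3 ± 14.3 CPM and 52.2 ± 23.9 CPM (SD, n = 3 each), but DSS 2 was above DSS+BV 1, so the groups overlapped. In the fit the log2 fold change of *Nqo1* was 1.68, a 3.19-fold higher level with *B. vulgatus* (standard error 0.67, 95% interval 0.09 to 3.26). With an unadjusted p of 0.0414 in the edgeR test and an adjusted p of 0.388 over all tested genes, it did not pass the threshold. DESeq2 gave a log2 fold change of 1.70 with an adjusted p of 0.131. With 1 mouse left out, the log2 fold change was 2.70 without DSS 2 and 1.34 without DSS 1, and no mouse left out turned its sign. The summed epithelial markers were higher in each DSS+BV mouse than in each DSS mouse. In DSS+BV 2 and DSS+BV 3, however, *Car1* alone held 10453 and 8702 CPM of the sum. Taken singly, 5 of the 10 epithelial markers separated the groups in this way. The part of the epithelium in the level of *Nqo1* was not tested.

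**Figure D2:**
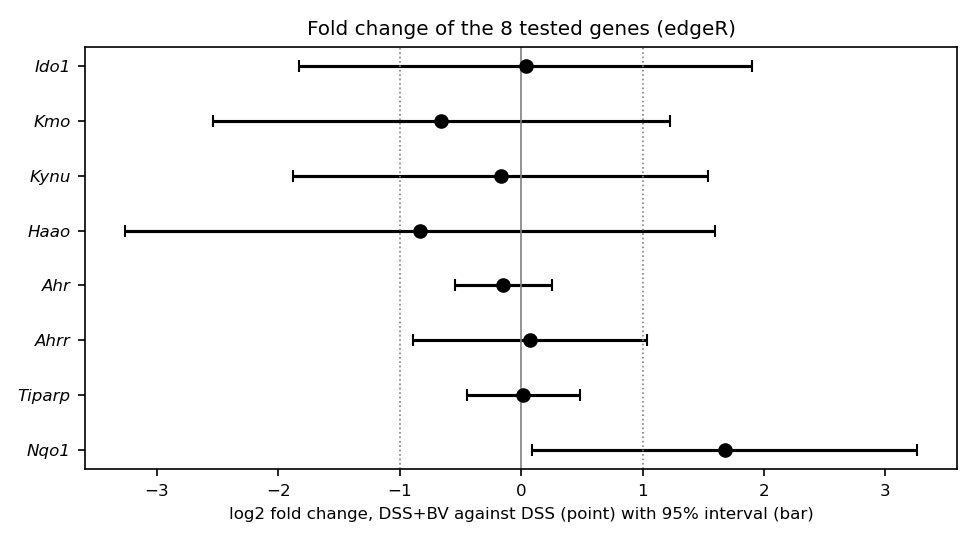
Log2 fold change of DSS+BV against DSS for the 8 tested genes (points) with 95% intervals from the edgeR fit (bars), the solid line at 0 and the dotted lines at the threshold of 1 in each direction. The intervals of *Ahr* and *Tiparp* lie within the dotted lines, those of *Ido1*, *Kmo*, *Kynu* and *Haao* cross both, and that of *Nqo1* runs from 0.09 to 3.26.

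Levels of different genes were compared per kilobase of exon, with the exonic lengths of GENCODE M21. In the DSS group *Ido1* (11.3 ± 9.92 CPM per kilobase; SD, n = 3) and *Nqo1* (10.5 ± 9.19) had the highest means, followed by *Tiparp* (7.67 ± 1.73) and *Ahr* (4.60 ± 0.292). The first 3 of these did not differ beyond their spread, while *Tiparp* was above *Ahr* per kilobase in each mouse. The enzymes that handle kynurenine were lower, with *Kmo* at 1.22 ± 0.638, *Haao* at 0.968 ± 0.711 and *Kynu* at 0.475 ± 0.331 CPM per kilobase, near *Ahrr* at 0.474 ± 0.163. *Ido2* followed at 0.137 ± 0.0304 CPM per kilobase. In the DSS+BV group *Nqo1* (33.6 ± 15.4 CPM per kilobase) was the highest, then *Ido1* (11.5 ± 7.11), *Tiparp* (7.77 ± 0.825) and *Ahr* (4.15 ± 0.675). In that group *Kmo* was at 0.774 ± 0.807, *Haao* at 0.545 ± 0.639 and *Kynu* at 0.423 ± 0.331 CPM per kilobase. Within a library *Kmo* was above both *Haao* and *Kynu* in 6 of 6, while *Haao* was above *Kynu* in 3 of 6. *Ido1* RNA was thus more abundant per kilobase than that of *Kmo*, *Kynu* or *Haao* in all 6 libraries, since its lowest value, 2.25 CPM per kilobase, was above their highest, 1.82.

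The spread between mice differed between the members. The within-group SD of log2 CPM was 1.30 for *Ido1*, 1.16 for *Kmo*, 1.01 for *Kynu*, 1.59 for *Haao* and 1.0 for *Nqo1*, each larger than that of between 94.6% and 98.6% of tested genes. It was 0.53 for *Ahrr* (77.3%), 0.24 for *Tiparp* (40.5%) and 0.18 for *Ahr* (24.5%). The pathway enzymes and *Nqo1* therefore varied more between mice of one group than the receptor and its feedback gene *Tiparp*.

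**Figure D3:**
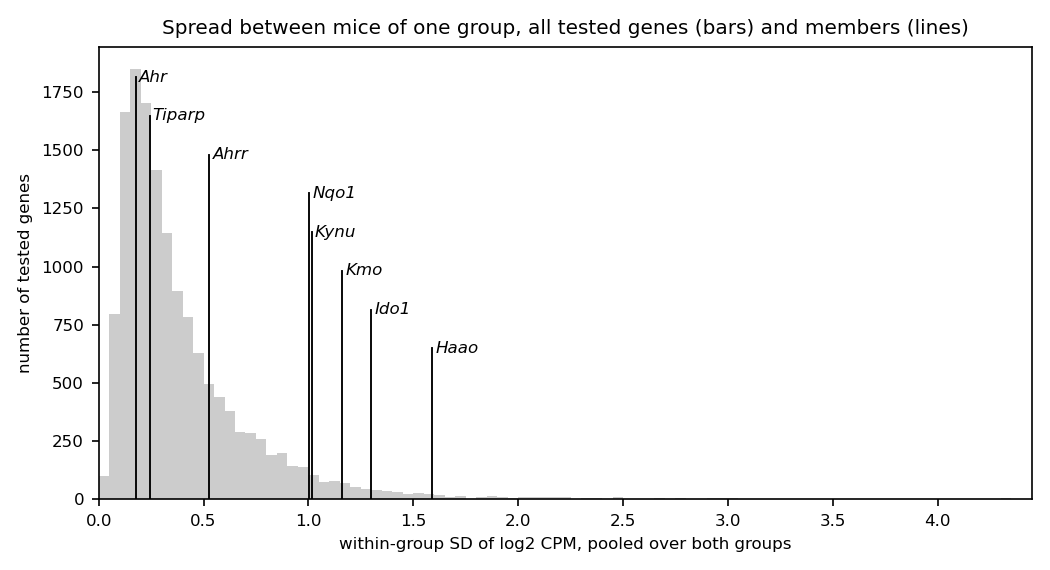
Number of tested genes (vertical axis) by the within-group SD of log2 CPM pooled over both groups (horizontal axis, grey bars), with a line for each tested member whose height carries no value. *Ahr* and *Tiparp* lie among the bulk of genes, and *Nqo1*, *Kynu*, *Kmo*, *Ido1* and *Haao* lie at 1.0 or above.

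The spread was shared among members. *Kmo*, *Kynu*, *Haao*, *Ahr* and *Ahrr*, 5 of the 8 tested members, had their 3 highest levels in DSS 1, DSS 3 and DSS+BV 1, as did 11.7% of all tested genes. These 3 libraries were taken as the 3 highest for *Kmo*, so *Kmo* has this order by construction. They were also singled out with the pattern of the whole table known, so the order is given as a description. For *Ahr* it rests on a small gap, between 27.5 CPM in DSS 1 and 27.1 CPM in DSS 2. *Nqo1* had its 3 lowest levels in the same libraries, as did 11.4% of all tested genes. *Ido1* and *Tiparp* followed neither order.

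Markers of immune cells moved with these libraries. Of the B and plasma cell markers, 7 of 8 had their 3 highest levels in DSS 1, DSS 3 and DSS+BV 1, as had 6 of 8 dendritic cell markers, 7 of 10 macrophage and monocyte markers and 4 of 7 T cell markers. The B and plasma cell markers summed to between 562 and 1699 CPM in the DSS mice and between 250 and 1196 CPM in the DSS+BV mice. The dendritic cell markers summed to between 24.4 and 81.5 CPM and between 21.6 and 52.4 CPM, and the macrophage and monocyte markers to between 763 and 1606 CPM and between 444 and 1173 CPM. The T cell markers summed to between 37.4 and 73.4 CPM in the DSS mice and between 38.4 and 78.7 CPM in the DSS+BV mice. Each marker of these lists found in the table was above 0 in every library. By contrast 0 of 10 epithelial, 0 of 8 neutrophil and 0 of 8 enteric neuron and glia markers had this order, and 1 of 8 fibroblast, 2 of 8 endothelial and 1 of 8 smooth muscle markers had it. The log2 fold change was below 0 for 8 of 8 fibroblast, endothelial and enteric markers each and for 7 of 8 smooth muscle markers, and above 0 for 10 of 10 epithelial markers. The part of these cell types in the levels of *Kmo*, *Kynu* and *Haao* was not tested.

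**Figure D4:**
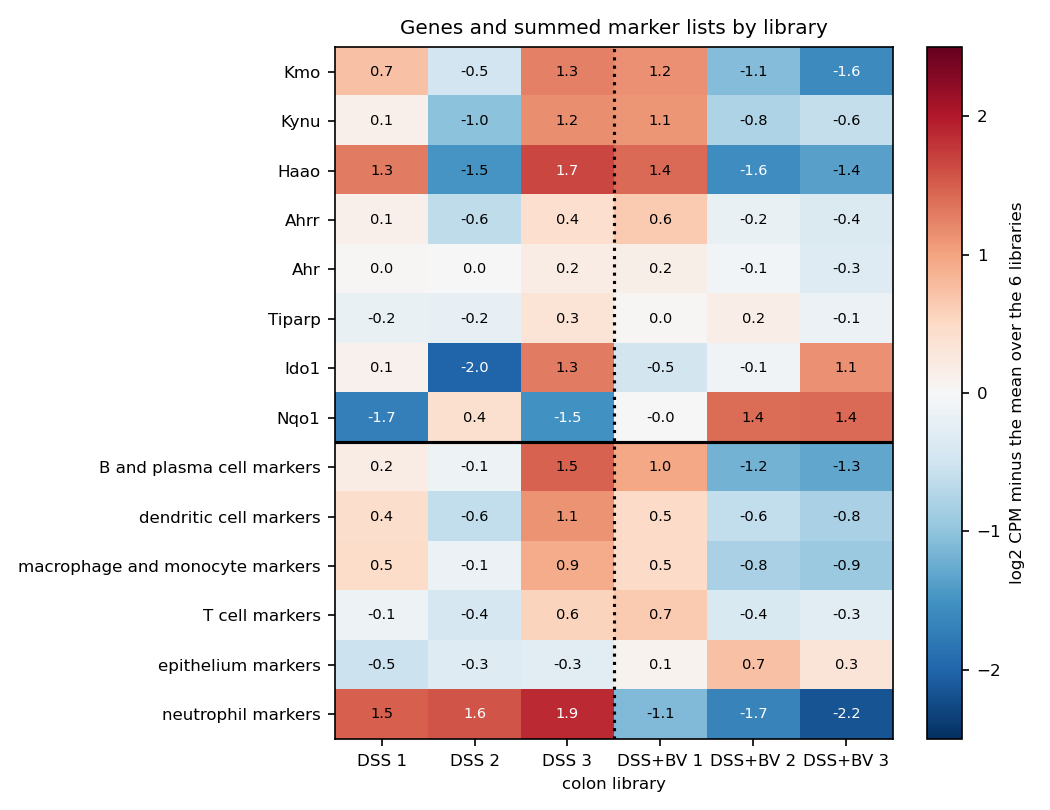
Log2 CPM minus the mean over the 6 libraries (colour and printed number) for the 8 tested genes and, below the line, for the summed level of 6 marker lists, with the DSS libraries left and the DSS+BV libraries right of the dotted line. *Kmo*, *Kynu* and *Haao* are above their means in DSS 1, DSS 3 and DSS+BV 1 together with the B and plasma cell, dendritic cell and macrophage markers. *Nqo1* is below its mean in DSS 1 and DSS 3 and close to it in DSS+BV 1, and the neutrophil markers follow the groups.

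The rest of the pathway was described with 5 lists of genes that hold no member. Of their 59 genes, 58 were in the table, 53 were tested and 0 were called by edgeR, beside 0.0892% of all tested genes. At an unadjusted p under 0.05, 4 were lower, beside 9.12% of all tested genes, and 3 higher, beside 3.4%. DESeq2 called 1, *Hmox1*, and limma-voom called 0. The median log2 fold change of the 53 was 0.08, and that of all tested genes was -0.01.

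Of the 12 other genes of the kynurenine pathway and NAD synthesis, 9 were tested, with 3 log2 fold changes below 0, 6 above and a median of 0.08. The synthetase *Nadsyn1*, which makes NAD in its last step, was at 28.9 ± 4.88 CPM with DSS alone and 40.1 ± 7.55 CPM with *B. vulgatus* (SD, n = 3 each), and its log2 fold change was 0.47 (edgeR adjusted p = 0.406). *Got2*, a mitochondrial aminotransferase that can make kynurenic acid, had a log2 fold change of 0.21, the aminotransferase *Kyat3* one of 0.26 and the NAD enzyme *Nmnat2* one of -0.48, and the groups of all 4 genes overlapped. The 3 genes not tested were *Tdo2*, which encodes the tryptophan dioxygenase of liver and was at or below 1.49 CPM, *Acmsd*, with 0.0622 CPM in DSS 2 and 0 elsewhere, and *Qprt*, between 0.0637 and 1.28 CPM.

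Of the 12 genes of tryptophan transport and other routes, 11 were tested, with 4 log2 fold changes below 0, 7 above and a median of 0.10. *Maoa*, the monoamine oxidase that breaks down serotonin, was at 343, 723 and 317 CPM with DSS alone and 648, 932 and 998 CPM with *B. vulgatus*. The groups overlapped through DSS 2, and the log2 fold change was 0.90 (edgeR adjusted p = 0.394). *Tph1*, the enzyme that starts serotonin synthesis in the gut, had a log2 fold change of 0.86 (edgeR adjusted p = 0.497). The amino acid transporter *Slc7a8* was lower in each DSS+BV mouse than in each DSS mouse, at 20.1 ± 2.78 CPM and 14.2 ± 2.41 CPM (SD, n = 3 each; log2 fold change -0.50, edgeR adjusted p = 0.389). The neutral amino acid transporter *Slc6a19* was higher in each, at 1.44 ± 0.305 CPM and 2.35 ± 0.601 CPM (SD, n = 3 each; log2 fold change 0.71, edgeR adjusted p = 0.456). Such separation held for 11.3% of all tested genes in the lower direction and 6.36% in the higher.

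Of the 12 other genes of the AhR complex and AhR targets, 11 were in the table and tested, with 4 log2 fold changes below 0, 7 above and a median of 0.17. The co-chaperone *Ptges3* had a log2 fold change of 0.25 (edgeR adjusted p = 0.690). *Ugt1a6a*, a glucuronosyltransferase that is a known AhR target, was at 15.3, 68.8 and 14.7 CPM with DSS alone and 43.0, 165 and 252 CPM with *B. vulgatus*. It had the largest log2 fold change of the list, 2.22 (edgeR adjusted p = 0.378, standard error 0.84), and the same overlap of DSS 2 with DSS+BV 1 as *Nqo1*. Its near copy *Ugt1a6b* had a log2 fold change of -0.46, and reads may be divided between the pair. The most used readouts of AhR activity, *Cyp1a1* and *Cyp1b1*, are named here after their values were seen. *Cyp1a1* was at 5.21, 0.311 and 1.81 CPM with DSS alone and 4.42, 2.1 and 2.47 CPM with *B. vulgatus*, a log2 fold change of 0.29 (edgeR adjusted p = 0.909, standard error 0.85). *Cyp1b1* was between 1.26 and 3.31 CPM in all libraries, with a log2 fold change of 0.35 (edgeR adjusted p = 0.776). *Nqo1* and *Ugt1a6a* had their 3 highest levels in DSS 2, DSS+BV 2 and DSS+BV 3, and *Cyp1a1*, *Cyp1b1*, *Ahrr* and *Tiparp* did not. This order is not particular to AhR targets, and 11.4% of all tested genes had it. It held for 3 of 11 NRF2 genes, 2 of 9 other kynurenine and NAD genes and 1 of 11 genes of tryptophan routes. It held for 0 of 11 interferon gamma genes. *Maoa*, *Nadsyn1*, *Nfe2l2* and *Gclm* were among the genes with this order. The part of AhR in the levels of *Nqo1* and *Ugt1a6a* was not tested.

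Since *Nqo1* is also a target of NRF2, 11 genes of NRF2 and its targets were read beside it. All 11 were tested, with 2 log2 fold changes below 0, 9 above and a median of 0.17. *Nfe2l2*, which encodes NRF2, was at 182, 235 and 172 CPM with DSS alone and 229, 336 and 327 CPM with *B. vulgatus*. The groups overlapped through DSS 2 and DSS+BV 1 as for *Nqo1*, and the log2 fold change was 0.60 (edgeR adjusted p = 0.356, standard error 0.21). *Gclm*, a subunit of the first enzyme of glutathione synthesis, had a log2 fold change of 0.46 (edgeR adjusted p = 0.528). The 2 genes below 0 were *Hmox1* and the cystine transporter *Slc7a11*. *Hmox1*, the haem oxygenase that macrophages also use, was at 37.6, 31.2 and 44.5 CPM with DSS alone and 14.5, 11.2 and 10.2 CPM with *B. vulgatus*. Each DSS+BV mouse was below each DSS mouse, with a log2 fold change of -1.66 (standard error 0.21). The gene did not pass the edgeR test, at an adjusted p of 0.0833, and did pass with DESeq2, at an adjusted p of 3.3e-08. All 10 macrophage and monocyte markers also had log2 fold changes below 0, and their part in the level of *Hmox1* was not tested. *Slc7a11* had a log2 fold change of -1.04 (edgeR adjusted p = 0.387). *Nqo1* and *Hmox1*, both targets of NRF2, had log2 fold changes of opposite sign. The part of NRF2 in the levels of these genes was not tested.

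Interferon gamma is the known inducer of *Ido1*. *Ifng* itself was too low to test, at or below 0.240 CPM in every library. Of the 11 tested response genes, 7 had a log2 fold change below 0 and 4 above, with a median of -0.06. *Gbp2*, *Gbp4* and *Ciita*, all induced by interferon gamma, had log2 fold changes of -0.85, -0.53 and -0.60, and none of the 11 had an adjusted p under 0.615 in the edgeR test.

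**Figure D5:**
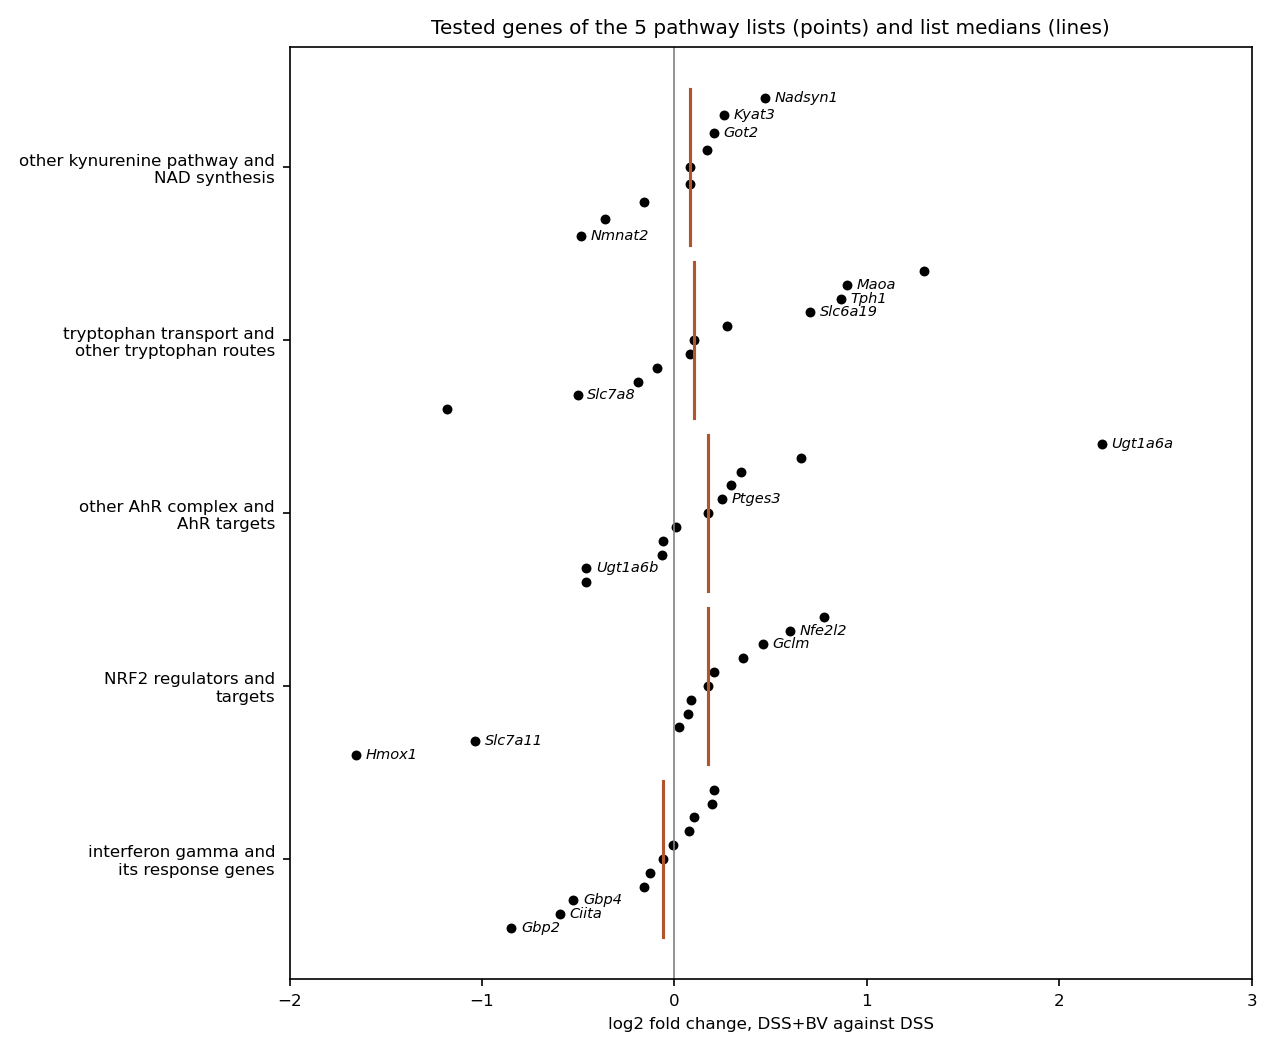
Log2 fold change of DSS+BV against DSS (horizontal axis) for each tested gene of the 5 lists (points, spread vertically in order of value) with the list median (brown line) and the names of the genes described in the text that had the smallest p in each list. The medians lie between -0.06 and 0.17, and *Ugt1a6a* and *Hmox1* lie farthest from 0.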

How the data were processed

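Colon RNA of 3 DSS and 3 DSS+BV mice was sequenced as 1 library each. The deposited values are expected counts per gene, made by the authors with RSEM and not scaled between libraries. The submitters' processing notes also list HISAT2 2.1.0, Bowtie2 2.2.5, RSEM 1.2.8 and the build GRCm38.p6, without their roles. A value that was not whole was present for 8.51% of genes and for 0 members.

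Expected counts were rounded, filtered with filterByExpr (minimum count 10, minimum total 15), scaled with TMM factors and compared in edgeR 4.0.16 (R 4.3.3) by its quasi-likelihood test, with no covariate and Benjamini-Hochberg adjustment over 14579 genes. Intervals use the fit's own degrees of freedom. CPM of untested genes use the same totals. Within-group SDs are of log2 CPM after adding 2 counts. Library totals lay between 15293276 and 17254343, and for 3 against 3 mice the smallest two-sided p of an exact permutation test is 0.1. Pairs of libraries of 1 group differed by more than sampling noise (chi-square divided by its degrees of freedom, 44.7 to 122.7).

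The members and lists were chosen with earlier results of these data known. The members, and from each pathway list every called gene and the 4 with the smallest p, are named. Some genes under this rule are not reported here. Alternatives were DESeq2 1.42.0, limma-voom (limma 3.58.1), other factors, filters and call rules, a robust fit, the replicate number as a block and each library left out. Tested on simulated data of 14579 genes with 50 changed genes per fold size, the share that edgeR called was 8% at a 2-fold change, 62% at 4-fold and 88% at 8-fold. The changed genes were drawn at random from all tested genes. The shares therefore do not hold for *Ido1*, *Kmo*, *Kynu*, *Haao* and *Nqo1*, whose spread was larger than that of most genes. Figures were drawn with matplotlib 3.10.9.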

Additional observations from a re-analysis of the deposited data

How the results depend on the processing

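No setting called a member. Of 112 values of the log2 fold change of the 8 tested members under other settings, 99 kept their sign and 13 did not, all 13 of them values of *Ido1*, *Kynu*, *Ahrr* or *Tiparp*. With upper-quartile factors the value of *Ido1* was -0.030 and that of *Tiparp* -0.037. With 1 library left out in turn, *Ido1* ran from -0.59 to 0.95, *Kynu* from -1.02 to 0.51, *Ahrr* from -0.29 to 0.31 and *Tiparp* from -0.069 to 0.22. Over the same fits *Kmo* ran from -1.96 to -0.24 and *Haao* from -2.44 to -0.33. *Nqo1* ran from 1.34 to 2.70, with edgeR adjusted p-values between 0.147 and 0.903.

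The number of called genes over the whole table was 13. It was 325 with DESeq2 (280 lower and 45 higher), which included the 13, 0 with the replicate number as a block, and between 0 and 7 with 1 library left out, the highest without DSS+BV 1 (3 lower and 4 higher). DESeq2 called 1 gene of the pathway lists. The cause of these differences was not tested. Whether the replicate numbers pair the mice is not given in the sources used here. The correlation of deviations between same-numbered libraries was 0.27, 0.25 and -0.30, and DSS 2 correlated most with DSS+BV 3, at 0.48. These few values cannot decide whether the libraries were paired. With the replicate block *Nqo1* was at 1.86 (standard error 0.41, edgeR unadjusted p = 0.0060, adjusted p = 0.344). Depth limits *Ido2* and *Aadat*, and for the other members the spread between 3 mice sets the width of the intervals.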
